A study of Drosophila melanogaster with 19 samples.

Results

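Nucleosome remodelling genes of Drosophila melanogaster were examined for where, with which enzyme and at which dose their DNA could be methylated in nuclei of S2-DSRC cells. The 9 genes are Iswi, Acf, E(bx), brm, osa, Mi-2, kis, Chd1 and dom, out of 13946 protein-coding genes. They were chosen by name as ATPases or defining subunits of the remodelling complexes. Every peak that touched the span of one of them, extended by 1 kb to each side, was taken as a peak of that gene. This gave 335 of the 82060 deposited peaks, of which 333 came from treated nuclei and 2 from untreated nuclei.

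Remodelling complexes use an ATPase motor of the SNF2 family to slide, evict or exchange nucleosomes. The ISWI motor works in several complexes that space nucleosomes or open promoters, among them ACF, CHRAC and NURF. The SWI/SNF motor Brahma works in BAP, which contains Osa, and in PBAP, which does not. Mi-2, Kismet and Chd1 belong to the chromodomain family, and Domino exchanges the histone variant H2Av. Since the readout is accessibility to a methyltransferase, a peak in one of these genes says that its DNA could be reached. It does not measure the transcript, the protein or the binding of a remodeller.

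S2-DSRC is a hemocyte-like cell line. Nuclei were treated with an m6A methyltransferase, which methylates adenines in the DNA it reaches, for 20 min at 37 °C, and an antibody then pulled down the short m6A-bearing fragments. The 17 treated libraries were made with 5 enzymes. Hia5 was used at 0.6, 2, 6, 20, 60 and 200 U, EcoGII at 0.6, 2 and 6 U, and EcoGI at 0.6 and 2 U. Btr192IV was used at 0.6, 2 and 6 U, and Hin1523 at a single dose, 2 U. As controls there were 1 m6A immunoprecipitation from untreated cells and 1 DNA input. Hia5 at 2 U and at 6 U had 2 libraries each, and the other 15 groups had 1 library, so their values carry no error. The labels do not say that the replicates came from separate cultures, so their spread, and any p-value that rests on it, may be technical.

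Treated lists held 772 to 13395 peaks, against 1974 for untreated cells and 32 for the input. The untreated list reached 5.744% of protein-coding genes and the input list 0.04302%. Absence of a gene from both controls is thus the usual case. Relative depth, read from the smallest step of the deposited signal, was 7.28 to 25.5 in the treated libraries, highest in EcoGII 6 U, against 11.34 untreated and 0.673 in the input. Peak heights are the authors' values and are given here as a percentile within their own list, where the highest peak is near 100. Of 10 hemocyte marker genes, whose median length falls in the 10 to 20 kb class, 8 had a treated peak. This is near the 83.11% of all protein-coding genes of 10 to 20 kb and does not check the labelled cell type. Of the 10, ush, zfh1 and srp had peaks in 16 treated libraries each, and NimC1 and eater in none. Genes of other tissues were not without peaks, since grh, elav and vas had them in 15, 14 and 12 treated libraries and Mhc in none.

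The 9 genes fell into 3 kinds. The long genes osa, kis and Mi-2 held 283 of the 333 treated peaks, or 84.98%, most of them in clusters inside the gene. The shorter genes Iswi and Acf, together with dom, held 46 peaks, or 13.81%, nearly all at or close to a gene end. E(bx), brm and Chd1 held 4 peaks between them, or 1.201%. Iswi and Acf, whose proteins work together, each had peaks in 9 treated libraries, but not in the same 9. Hia5 6 U replicate 1, EcoGI 2 U and Btr192IV 0.6 U held Iswi and not Acf. Hia5 2 U replicate 2, Btr192IV 2 U and Hin1523 2 U held Acf and not Iswi. Among the BAP genes, osa had peaks in 17 and brm in 1.

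Per kb of extended span, osa held 3.504 treated peaks, kis 2.471, Mi-2 2.155, Iswi 2.014, Acf 1.279 and dom 1.175. The density was 0.1334 peaks per kb in E(bx), 0.09841 in Chd1 and 0.06762 in brm. Over the 9 spans together it was 1.861 treated peaks per kb, against 0.709 over all protein-coding genes. The plot of peak counts by gene and library gives the number behind each of these values.

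**Figure D1:**
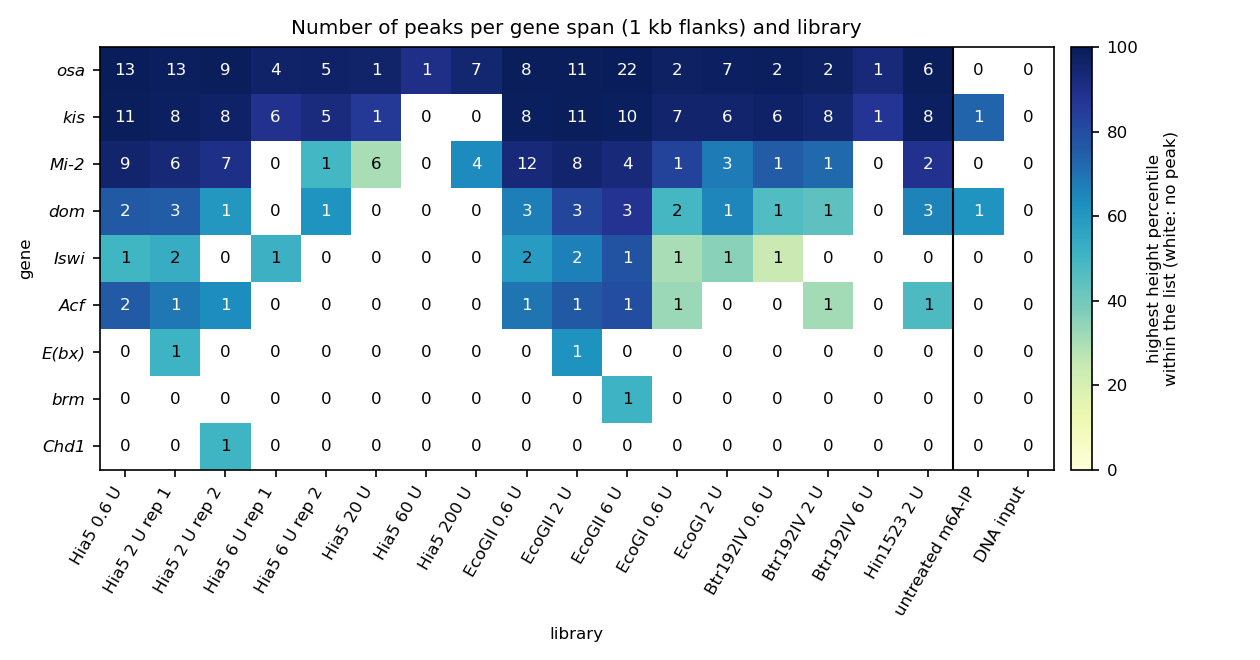
Number of peaks (figures in the cells) in each gene span with 1 kb flanks, for each library along the bottom and each gene down the side. The colour gives the percentile of the highest of those peaks within its list, from 0 to 100, and white marks no peak. The vertical line parts the 17 treated libraries from the untreated and input libraries on the right, where only dom and kis hold 1 peak each.

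All 9 genes had a peak in at least 1 treated library, as did 56.2% of all protein-coding genes. A peak in 6 or more treated libraries was found for 6 of the 9 genes, against 25.9% of all protein-coding genes. Long genes have more room for peaks, so each gene was set beside genes of its own length. In the 3 to 10 kb class 33.7% of genes reached 6 libraries, and both Iswi and Acf did while Chd1 did not. In the 10 to 20 kb class 52.6% reached it, and dom did while E(bx) and brm did not. In the 20 to 50 kb class 69.3% reached it, and osa, kis and Mi-2 all did. When each list was cut to its 772 highest peaks, the length of the shortest list, 3 of the 9 genes had a treated peak, namely osa in 17, kis in 15 and Mi-2 in 7 libraries. After the same step 10.3% of all protein-coding genes had one, with 38.2% in the length class of these 3 genes. The shares were 11.5% for 3 to 10 kb and 25.6% for 10 to 20 kb, the classes of the other 6 genes, of which none had a peak left.

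Within these classes osa stood highest, since only 5.666% of genes of 20 to 50 kb had peaks in as many treated libraries. For kis the share was 19.26% and for Mi-2 26.77%. For dom it was 23.21%, and for Iswi and Acf, with 9 libraries each, 19.8%. At the other end, 26.11% of genes of 10 to 20 kb had peaks in as few libraries as brm and 31.4% in as few as E(bx). For Chd1 the share was 40.59% of genes of 3 to 10 kb. The plot by length class places each gene beside these backgrounds.

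**Figure D2:**
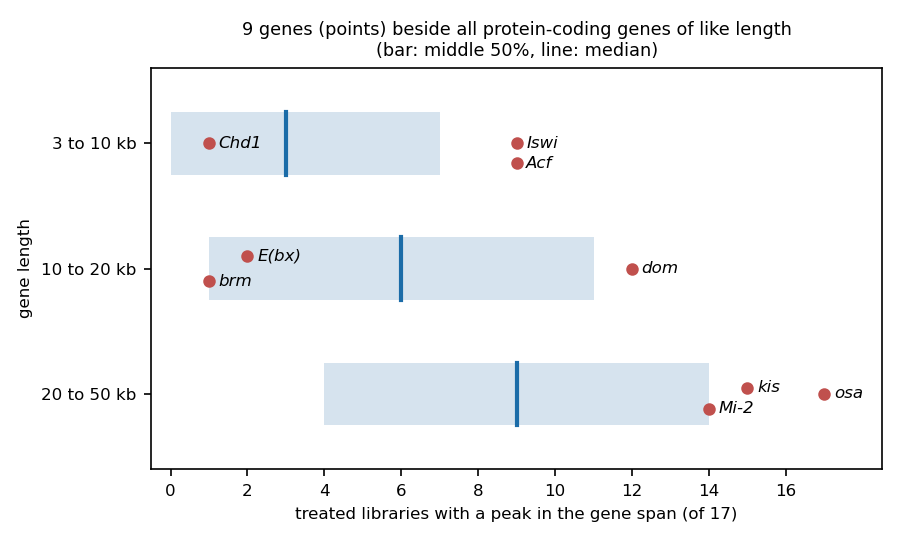
Number of treated libraries (of 17) with a peak in each gene span, with the 9 genes as points in 3 classes of gene length. Bars give the middle 50% of all protein-coding genes of the class and the line its median, which is 3, 6 and 9 libraries for the classes of 3 to 10, 10 to 20 and 20 to 50 kb. Iswi, Acf, dom, kis and osa lie to the right of the bar of their class.

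To compare positions, overlapping peaks of the treated libraries were merged into sites, and a site was called recurrent when 6 or more of the 17 treated libraries had a peak there. The 9 genes held 72 sites, of which 22 were recurrent: 7 in kis, 6 in osa, 4 in Mi-2, 3 in dom and 1 each in Iswi and Acf. Over all sites of the treated libraries, 4533 of 20386 were recurrent. The count in the 9 genes was not tested against this background. At the edge of this threshold, 1 site each of osa, Mi-2 and dom was held by 6 libraries, and 1 site each of osa and Mi-2 by 5. Positions are those of the dm6 assembly. Genes were placed by their lowest and highest coordinate, with strand and exons not used here, so "left" and "right" mean the lower and the higher coordinate and not the 5′ and 3′ ends.

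Iswi encodes the ISWI motor itself and lies at 12636671 to 12640628 on chromosome arm 2R. It had 12 treated peaks at 2 sites. The recurrent site, 12636521 to 12636789, spans the left end of the gene and was held by 9 treated libraries. Hia5 reached it at 0.6 U (percentile 49.8), 2 U replicate 1 (53.2) and 6 U replicate 1 (51.2), but the other replicate of either dose had no peak there. EcoGII reached it at 0.6, 2 and 6 U (58.6, 66.5 and 78.5), EcoGI at 0.6 and 2 U (30.4 and 35.7), and Btr192IV at 0.6 U (23.5). The percentiles thus ran from 23.5 to 78.5, with a median of 51.2. The other Iswi site, 12636034 to 12636233, lies over the end of the neighbouring genes Mvk and CG33672 and was held by 3 libraries. No Iswi peak was found in either control.

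Acf encodes the large subunit that joins ISWI in ACF and CHRAC, and lies at 31793981 to 31799799 on 3R. Of its 10 treated peaks, 9 formed the recurrent site 31794460 to 31794780, which starts 479 bp inside the left end. Hia5 held this site at 0.6 U (percentile 75.8) and in both 2 U libraries (68.5 and 63.4), and in no library at 6 U or above. EcoGII held it at 0.6, 2 and 6 U (69.4, 76.2 and 79.8). Peaks were lower in rank in Hin1523 2 U (47.3), EcoGI 0.6 U (32.7) and Btr192IV 2 U (31.0). The remaining peak, in Hia5 0.6 U at 31793893 to 31794062, spans the left end and reaches the neighbour Mccc1. Neither control had a peak in Acf.

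E(bx) encodes the largest subunit of NURF, the ISWI complex that opens promoters. It lies at 233926 to 246912 on 3L and had 2 treated peaks, in 2 libraries, both at its right end. The Hia5 2 U replicate 1 peak lay at 246517 to 246716 (percentile 51.1) and the EcoGII 2 U peak at 246897 to 247071 (61.7). They did not overlap each other, and Hia5 2 U replicate 2 had no peak in E(bx).

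The plot of the left ends shows dom, Iswi and Acf on the same scale. The Iswi and dom peaks lie on or beside the end, and 9 of the 10 Acf peaks stand inside the gene at its recurrent site, with 1 peak of Hia5 0.6 U across the end.

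**Figure D3:**
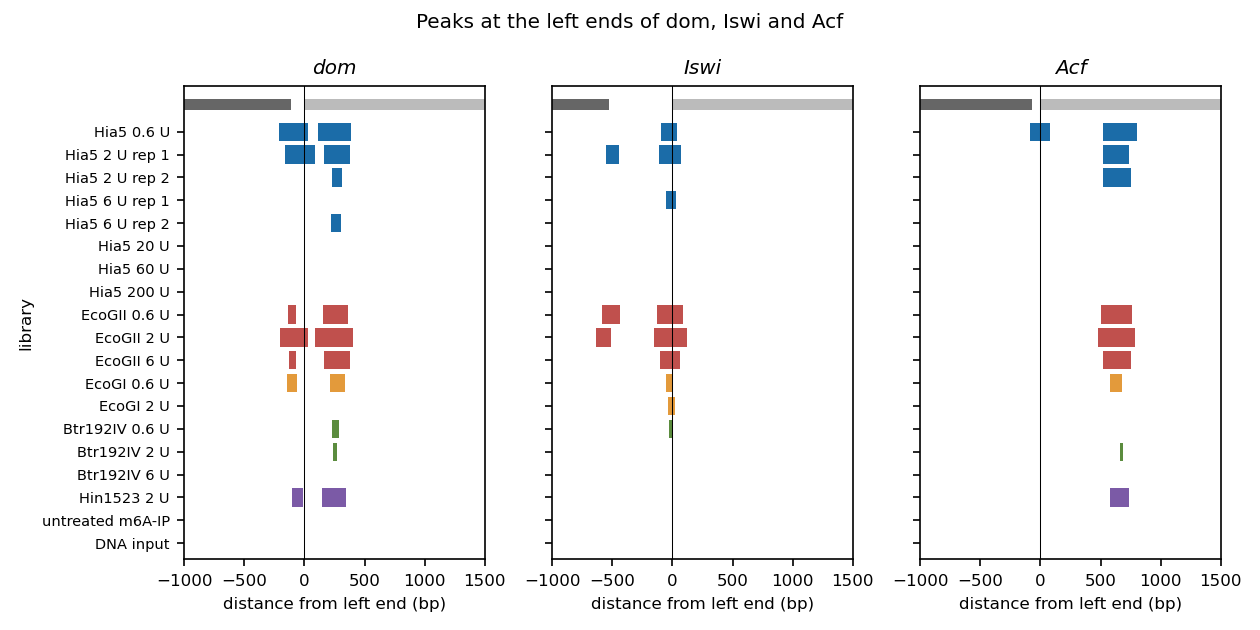
Peaks (bars coloured by enzyme) of each of the 19 libraries around the left ends of dom, Iswi and Acf, with distance from the end in bp along the bottom and negative values outside the gene. The light grey bar at the top is the gene and the dark grey bar its left neighbour. Hia5 at 20, 60 and 200 U, Btr192IV 6 U, the untreated library and the input have no peak in these windows.

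The gene brm encodes the SWI/SNF motor shared by BAP and PBAP and lies at 15970082 to 15982869 on 3L. It had 1 treated peak, in EcoGII 6 U, at 15974478 to 15974587 with a percentile of 50.9. No other treated library overlapped that peak, and EcoGII 6 U has the longest list and the highest relative depth of the series. Neither control had a peak in brm.

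The gene osa encodes the ARID-domain subunit that distinguishes BAP from PBAP, and lies at 17687818 to 17718350 on 3R. It had 114 treated peaks at 22 sites in 17 of 17 treated libraries, and none in the untreated library or the input. One site, 17700681 to 17701920, was held by all 17 treated libraries and ranked high in each. It starts 12863 bp inside the gene and, as merged, covers the lncRNA gene lncRNA:CR46036, at 17700741 to 17701873. Peaks of single libraries in it were shorter and did not all overlap each other. The Hia5 200 U peak lay at 17700814 to 17700897. The highest peak of Hia5 6 U replicate 2 lay at 17700921 to 17701000.

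In Hia5 0.6 U the highest peak of this osa site was rank 45 of 8080. It was rank 96 of 5680 and 65 of 6161 in the libraries of 2 U, and 109 of 2856 and 71 of 2132 in those of 6 U. With 20 U it was rank 103 of 2494, with 60 U rank 80 of 772 and with 200 U rank 208 of 4054. In EcoGII it was rank 57 of 6772, 79 of 7969 and 76 of 13395 at 0.6, 2 and 6 U. In EcoGI it was 70 of 2916 and 70 of 3012 at 0.6 and 2 U. In Btr192IV it was 70 of 3692, 80 of 3098 and 97 of 1425 at 0.6, 2 and 6 U, and in Hin1523 2 U 57 of 5546. In percentiles the site ran from 89.8 in Hia5 60 U to 99.4 in Hia5 0.6 U and EcoGII 6 U, with a median of 97.7. At 60 U this peak, 17700881 to 17701080, was the only peak of any of the 9 genes.

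Beside it lies the osa site 17699922 to 17700500, held by 13 treated libraries with percentiles of 70.6 to 98.7. It was missing in Hia5 20, 60 and 200 U and in Btr192IV 6 U. Further right, 17702741 to 17703000 was held by 8 libraries and 17705981 to 17706340 by 6, none of them Btr192IV libraries. Near the right end, 17714521 to 17715220 was held by 10 libraries and 17717101 to 17717500, which ends 850 bp inside the gene, by 9. Btr192IV had no peak at either of these. The left part of osa was empty in most libraries. Peaks starting up to 10150 bp from the left end came from 3 libraries: Hia5 2 U replicate 2, Hia5 200 U and EcoGII 6 U. Some of these peaks ranked high. Their percentiles were 69.4 to 93.2 in Hia5 200 U and 33.3 to 86.2 in EcoGII 6 U. In Hia5 2 U replicate 2 they were 17.7 and 37.6.

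Mi-2 encodes the motor of the NuRD and dMec complexes, which are known for repression, and lies at 19882051 to 19910215 on 3L. It had 65 treated peaks at 23 sites in 14 treated libraries, and none in either control. All 4 of its recurrent sites, and 55 of its 65 peaks, reach the span of Su(Tpl), a gene at 19889120 to 19909410 inside Mi-2 that encodes an elongation factor of the ELL family. For these peaks the 2 genes cannot be told apart by position.

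The central Mi-2 site, 19895575 to 19895920, starts 13524 bp inside the gene and touches lncRNA:CR32218. It was held by 10 treated libraries. Its percentile was 95.4 in Hia5 0.6 U, 93.7 and 90.1 in the 2 U libraries and 49.6 in 6 U replicate 2, with no peak in 6 U replicate 1 or at 20 U and above. It was 93.0, 95.6 and 92.9 in EcoGII 0.6, 2 and 6 U, 82.9 and 67.9 in EcoGI 0.6 and 2 U, and 88.6 in Hin1523 2 U, while no Btr192IV library had it. The right-hand site, 19908321 to 19908750, was also held by 10 libraries, here with Btr192IV at 0.6 U (75.4) and 2 U (71.9) but with no Hia5 library at 6 U or above. The recurrent sites 19902760 to 19903049 and 19897401 to 19897720 were held by 7 and 6 libraries.

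Left of Su(Tpl), the Mi-2 peaks came from Hia5 at 20 and 200 U alone. The 20 U library had 6 peaks between 19882681 and 19888049, with percentiles of 21.5 to 30.4, and no peak at any recurrent Mi-2 site. The 200 U library had 2 peaks in the same stretch, at 44.8 and 45.6, of which 1 overlapped a 20 U peak. None of the 6 peaks at 20 U overlapped a peak of the treated libraries other than Hia5 20, 60 and 200 U, whereas 89.45% of all 2494 peaks of the 20 U list did. With 1 library at each of these doses, there is no replicate of this pattern.

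The gene kis encodes Kismet, a chromodomain motor of the CHD7 type and a member of the trithorax group, and lies at 210735 to 250823 on 2L. It had 104 treated peaks at 16 sites in 15 treated libraries, all but Hia5 60 and 200 U. Its 7 recurrent sites formed 2 clusters. The left cluster holds 220481 to 220820, 221852 to 222640 and 224121 to 224698, and the right cluster 246661 to 247160, 247481 to 247862, 248141 to 248480 and 249161 to 249540. In the stretch between the clusters the peaks came from EcoGII 2 and 6 U and Btr192IV 2 U, at 4 sites held by 1 or 2 libraries each.

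The most widely held kis site, 249161 to 249540, was found in 15 treated libraries and lies inside lncRNA:CR44218. Its percentile was 99.0 in Hia5 0.6 U, 97.8 and 96.8 with 2 U, 88.6 and 92.1 with 6 U, and 85.8 in Hia5 20 U. EcoGII gave 98.8, 98.9 and 98.7 at 0.6, 2 and 6 U, and EcoGI 95.3 and 95.5 at 0.6 and 2 U. Btr192IV gave 96.8, 94.9 and 87.3 at 0.6, 2 and 6 U, and Hin1523 97.9 at 2 U. It was the only kis peak in Hia5 20 U and in Btr192IV 6 U, and neither control had a peak there.

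The sites at 220481, 221852, 246661 and 247481 were each held by the same 13 treated libraries, which leave out Hia5 20, 60 and 200 U and Btr192IV 6 U. Of these, 247481 to 247862 had percentiles of 63.9 to 98.4 in treated libraries and was the place of the untreated kis peak, 247581 to 247758, at percentile 73.2 of its own list. All 13 treated kis peaks that overlapped a control peak lay there. The site 224121 to 224698 lies in lncRNA:CR44222 and was held by 11 libraries, and 248141 to 248480 by 9, among them no EcoGI library. No peak was found in the left flank of kis, beside its neighbour Tbc1d15-17.

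The maps of osa, kis and Mi-2 show that the same places recur from library to library, with long stretches of each gene empty between them.

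**Figure D4:**
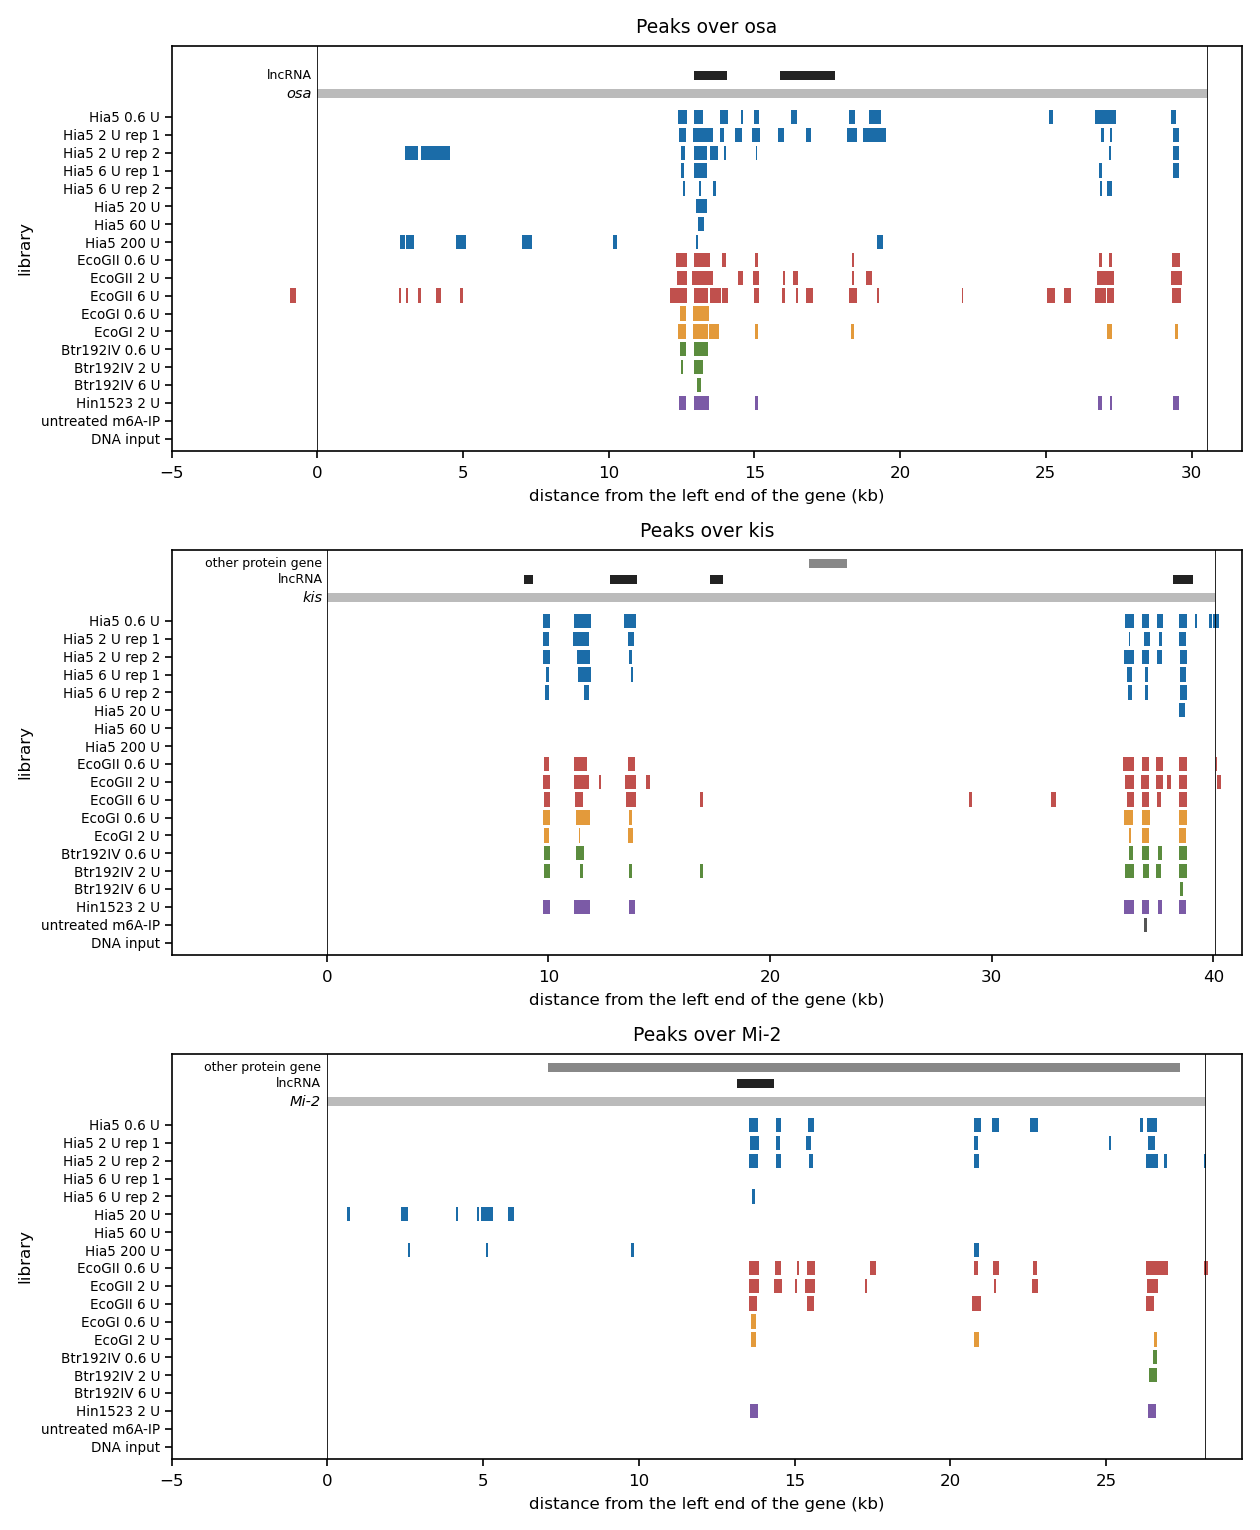
Peaks (bars coloured by enzyme) in each of the 19 libraries over osa, kis and Mi-2, with distance from the left end of the gene in kb along the bottom. Light grey bars mark the gene, black bars the lncRNA genes and dark grey bars other protein-coding genes inside it, which is Su(Tpl) in Mi-2 and CG13693 in kis. Vertical lines mark the gene's ends, and the merged osa site that starts 12863 bp from the left end holds a peak in all 17 treated libraries.

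Chd1 encodes a chromodomain motor known to act with transcription elongation and lies at 2979562 to 2987723 on 2L. It had 1 treated peak, in Hia5 2 U replicate 2, at 2987695 to 2987762, across its right end, with a percentile of 50.4. Hia5 2 U replicate 1 had no peak in Chd1, nor had either control.

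The gene dom encodes Domino, the SWR1-type motor of the Tip60 complex, and lies at 21323430 to 21341847 on 2R. It had 24 treated peaks at 3 sites, all recurrent, in 12 treated libraries. The site 21323521 to 21323832 starts 91 bp inside the left end and was held by 11 libraries. Its percentile was 76.2 in Hia5 0.6 U, 66.9 and 60.2 at 2 U and 61.2 in 6 U replicate 2. It was 66.9, 81.8 and 87.7 in EcoGII 0.6, 2 and 6 U, 48.9 in EcoGI 0.6 U, 46.5 and 43.9 in Btr192IV 0.6 and 2 U, and 65.7 in Hin1523 2 U.

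Next to it, the dom site 21323221 to 21323520 spans the left end and reaches the neighbour CG30394, and was held by 7 libraries. At the right end, 21341095 to 21341317 was held by 6 treated libraries with percentiles of 32.9 to 84.5. The untreated library had its dom peak at the same place, 21341189 to 21341276, at percentile 61.2 of its own list. All 6 treated peaks at this site overlapped that peak. The long middle of dom, which holds a row of snoRNA genes, had no peak in any library.

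Recurrent sites of the long genes lay inside the gene, the nearest to an end being an osa site 850 bp from it. None of the 17 recurrent sites of osa, kis and Mi-2 lay within 500 bp of an end of its own gene, while 4 of the 5 recurrent sites of Iswi, Acf and dom did. In all, 4 of the 22 recurrent sites of the 9 genes, or 18.18%, lay within 500 bp of an end of any protein-coding gene, against 1657 of 3726, or 44.47%, over all protein-coding spans. Annotated lncRNA genes were touched by 4 of the 22 recurrent sites, or 18.18%, against 146 of 3726, or 3.918%, over all protein-coding spans. The 4 sites are 2 in kis, 1 in osa and 1 in Mi-2, and this count was not tested. Neither the gene-end share nor the lncRNA share was matched by gene length. The background holds genes of every length, while 17 of the 22 sites lie in the long genes osa, kis and Mi-2. All annotated lncRNA genes within the 9 spans also lie inside these long genes. Whether either difference goes beyond that of genes of like length was not tested.

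The median percentile of a gene's treated peaks was 89.1 in kis and 88.8 in osa. It was 66.0 in Acf, 63.2 in dom, 60.7 in Mi-2 and 50.5 in Iswi. The kis and osa peaks thus sat nearest the top of their lists. At the most widely held sites, the osa site ranked above the kis site in each of the 15 libraries that hold both, and the kis site above the Mi-2, dom, Iswi and Acf sites plotted with it wherever these had a peak.

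**Figure D5:**
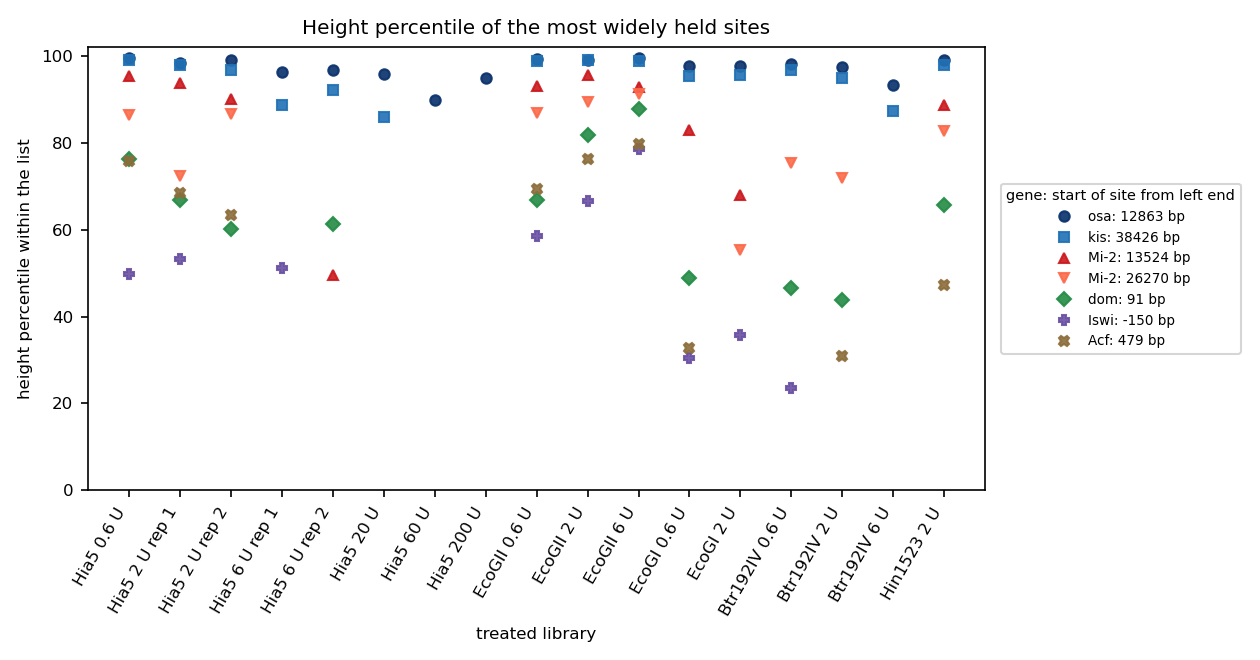
Height percentile within its list of the peak at the most widely held site or sites of osa, kis, Mi-2, dom, Iswi and Acf, for each of the 17 treated libraries along the bottom. A missing point means no peak at that site in that library, and the legend gives the start of each site from the left end of its gene in bp. The osa site lies at 89.8 or above in every library, and the kis site at 85.8 or above in the 15 libraries that hold it.

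The Hia5 libraries form the one long series of doses. The 9 genes together held 38 peaks in the library of 0.6 U, 34 and 27 in those of 2 U, and 11 and 12 in those of 6 U. The library of 20 U held 8 peaks, that of 60 U 1 and that of 200 U 11. Of these, 2 at 20 U, 1 at 60 U and 6 at 200 U overlapped a peak of a treated library outside these doses. Over whole lists, 89.45%, 98.06% and 58.81% of peaks did. The 8 peaks at 20 U include 6 in Mi-2, none of which did. The 2 libraries at 6 U averaged 11.5 ± 0.7071 peaks and the 2 libraries at 2 U averaged 30.5 ± 4.95 (SD, n = 2 each), a difference of -19 peaks. The counts of the 2 doses did not overlap, but with 2 libraries against 2 an exact two-sided permutation test cannot give a p below 0.3333. The 6 U lists were also shorter, at 2856 and 2132 peaks, than the 2 U lists, at 5680 and 6161 peaks. When each list was cut to its 772 highest peaks, the difference was -4. A split of the series into 2 runs was inferred from library numbers in the labels. In the first, the counts were 34, 11, 8, 1 and 11 at 2, 6, 20, 60 and 200 U, and in the second 38, 27 and 12 at 0.6, 2 and 6 U.

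Because list length differs with dose, the dose test used the share of a library's covered bases that lies in a gene, against log10 of the dose over the 8 Hia5 libraries. It ran on the 1889 protein-coding genes with a peak in at least 4 of them, among which are osa, kis, Mi-2 and dom. Iswi and Acf, with 3 Hia5 libraries each, and E(bx), brm and Chd1, with 1 or none, were not tested. By exact permutation of Spearman's rho with Benjamini-Hochberg adjustment, 0 of 1889 genes (0% called) passed an adjusted p of 0.05, in either direction, and Pearson's r gave 0 as well. At an unadjusted p under 0.05 the same test gave 509 genes, 460 with a lower and 49 with a higher share at higher dose. The 20, 60 and 200 U libraries all fall in the first inferred run and the 0.6 U library in the second. At the ends of the series dose and inferred run thus cannot be told apart. The permutation exchanged libraries across runs, so its p-values do not measure dose alone.

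The share of covered bases in dom was 0.02998% with 0.6 U of Hia5, 0.05129% and 0.007658% with 2 U, and 0% and 0.02413% with 6 U. The libraries of 20, 60 and 200 U had none. Its rho was -0.815 (n = 8 libraries), with an exact permutation p of 0.02381 and an adjusted p of 0.1364. Its r was -0.655, with an exact permutation p of 0.08214, and -0.604 or -0.585 without the 2 doses farthest from the median (200 U with 0.6 U or with 60 U, which lie equally far).

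The share in kis was 0.1976% with 0.6 U, 0.1659% and 0.1969% with 2 U, and 0.288% and 0.3034% with 6 U. It was 0.05815% with 20 U and 0% with 60 and 200 U. The highest shares were at 6 U, and the lowest at 20 U and above. For kis rho was -0.618 (exact permutation p = 0.1079, adjusted p = 0.2265), and r was -0.719 (exact permutation p = 0.04861, adjusted p = 0.1679). Without the 200 and 0.6 U libraries r was -0.679, and without those of 200 and 60 U it was -0.22, so the relation rests on the highest doses. With covered bases not divided by the library's total, both kis (adjusted exact permutation p = 0.003748) and dom (0.02155) passed as lower at higher dose, as did 1085 of all 1889 genes.

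The gene osa had a share in every Hia5 library, with 0.1686% in that of 0.6 U, 0.2893% and 0.2285% in those of 2 U, and 0.1652% and 0.1496% in those of 6 U. The values were 0.08351% with 20 U, 0.1527% with 60 U and 0.1996% with 200 U. Its r was -0.312 and its rho -0.422, with adjusted exact permutation p-values of 0.5818 and 0.4431, and rho was 0.036 when peaks over control peaks were left out of all lists. Without the 200 U library its rho was -0.746 (exact permutation p = 0.0619, adjusted p = 0.2172). Its r was -0.736 without 200 and 0.6 U and -0.609 without 200 and 60 U. Mi-2 had 0.09957% with 0.6 U, 0.08794% and 0.111% with 2 U, and 0% and 0.02503% with 6 U. Its shares were 0.2261% with 20 U, 0% with 60 U and 0.04378% with 200 U. Its r was -0.206 and its rho -0.37, with adjusted exact permutation p-values of 0.7247 and 0.5125, and its highest share came from the 6 peaks of the 20 U library. Its r was -0.077 without 200 and 0.6 U and 0.263 without 200 and 60 U, so its sign rests on the 200 and 60 U libraries. Over all 1889 genes the median rho was -0.519 and 77.02% were negative, so negative values were the common case.

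The other enzymes were set beside Hia5 at matched doses, as values of single libraries without a test. At 0.6 U the 9 genes held 38 peaks with Hia5, 34 with EcoGII, 14 with EcoGI and 11 with Btr192IV, in lists of 8080, 6772, 2916 and 3692 peaks. At 2 U they held 37 peaks with EcoGII, 20 with Hin1523, 18 with EcoGI and 13 with Btr192IV, beside 34 and 27 with Hia5. At 6 U the counts were 42 with EcoGII and 2 with Btr192IV, beside 11 and 12 with Hia5. The untreated library held 2 and the input 0.

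As a share of its list, the peaks in the 9 genes made up 0.4703% in Hia5, 0.5021% in EcoGII, 0.4801% in EcoGI and 0.2979% in Btr192IV at 0.6 U. At 2 U they made up 0.5986% and 0.4382% in Hia5, 0.4643% in EcoGII, 0.5976% in EcoGI, 0.4196% in Btr192IV and 0.3606% in Hin1523. At 6 U they made up 0.3852% and 0.5629% in Hia5, 0.3135% in EcoGII and 0.1404% in Btr192IV, so EcoGII had the highest count there but a share below both Hia5 libraries. The untreated share was 0.1013%. At 2 U the shares of EcoGII and EcoGI lay between those of the Hia5 replicates, and those of Btr192IV and Hin1523 below both.

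By gene, Hia5 reached 8 of the 9, all but brm, and EcoGII reached 8, all but Chd1. Each of the 3 EcoGII libraries held Iswi, Acf, osa, Mi-2, dom and kis. EcoGI held Iswi, osa, Mi-2, dom and kis in both of its libraries and Acf in 1. Btr192IV held osa and kis in all 3, Mi-2 and dom in 2, and Iswi and Acf in 1 each. Hin1523, with 1 library, held osa, kis, Mi-2, dom and Acf. E(bx), brm and Chd1 were missing in EcoGI, Btr192IV and Hin1523 alike. These enzymes had 2, 3 and 1 libraries, against 8 for Hia5 and 3 for EcoGII. Single libraries held peaks in 3.162% to 38.74% of all protein-coding genes with Hia5 and 32.68% to 37.8% with EcoGII. The shares were 14.47% and 15.11% with EcoGI, 6.869% to 18.21% with Btr192IV and 27.38% with Hin1523.

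Between the 2 Hia5 libraries of a dose, 21 of 34 peaks of 2 U replicate 1 overlapped a peak of replicate 2, and 22 of 27 in the other direction. Over whole lists the shares were 65.65% and 61.48%. At 6 U it was 8 of 11 and 8 of 12, against 44.36% and 59.71% of whole lists. All 4 of these libraries held 8 of the 72 sites, 5 in kis and 3 in osa.

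Related genes were described from 2 lists. Of 34 genes for accessory subunits, 28 had a treated peak and 14 had peaks in 6 or more treated libraries, with a median of 5 libraries. Their median length was 2.4 kb, and 42.96% of all protein-coding genes under 3 kb had a treated peak. The most widely held were tou, which encodes an ISWI partner, and simj, a NuRD subunit, both in 17 libraries. These 2 genes are long, at 38561 and 25996 bp. They were followed by MTA1-like of NuRD in 16, and MEP-1 of dMec and e(y)3 of PBAP in 14 each. Of the other genes listed under NuRD, HDAC1 and MBD-like had peaks in 12 each and CDK2AP1 in none. Nurf-38 and Caf1-55, listed here under NURF alone, held peaks in 4 and 3 libraries. This listing does not give every complex of a subunit. The subunits common to BAP and PBAP, mor, Bap60, Bap111, Snr1 and Bap55, held them in 10, 6, 5, 4 and 1.

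Of 8 further SNF2-family ATPases, 7 had a treated peak and 3 had peaks in 6 or more treated libraries, with a median of 4.5. Their median length was 3.92 kb. In the 3 to 10 kb class 70.75% of all protein-coding genes had a treated peak and 33.7% reached 6 libraries. Ino80, the motor of the INO80 complex, had peaks in 11 and Hel89B in 10. Chd3, a relative of Mi-2, had them in 6, XNP, the fly ATRX, in 5 and lds in 4, while Marcal1 had none. Over all protein-coding genes 56.2% had a treated peak and 25.9% reached 6 libraries. Neither list was tested against these shares or matched by gene length.

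For each gene with peaks in 4 to 16 treated libraries, the gene whose set of treated libraries was most like it was found by the Jaccard index, with ties broken by Pearson's r of covered bases over the 19 libraries. For Iswi it was Larp4B, with an index of 0.9 and r of 0.708. For Acf it was CG10098 (index 1, r 0.954, 12 genes tied) and for Mi-2 Rbfox1 (index 1, r 0.801, 3 tied). For dom it was sprt (index 1, r 0.888, 27 tied), and for kis CG5033 (index 1, r 0.96, 114 tied). Libraries share depth and list length across genes, so these are descriptions. The 114 genes tied with kis show that its set of libraries is a common one.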

How the data were processed

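The authors deposited 1 peak list per library, 19 in all, with 5% as the FDR in the file names. A peak has a start, an end and a height in the authors' signal, which is the value used here per the files as deposited. The tools named are BWA 0.7.12 and SAMtools 1.2, and dm6 and GRCh38 are the builds listed, per the submitters' processing notes. The peak caller, and whether input was subtracted before heights were set, is not given in the sources used here. Nor are read totals, which leaves the depth in reads unknown. The smallest step of the heights gave the relative depth (tolerance 0.05 of a step).

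Genes came from a RefSeq table of release 6 (17807 genes on 7 chromosomes, without strand or sequence), so the motif search planned for promoters was not run. A peak was assigned with an overlap of at least 1 bp. Heights were ranked only within a list. The dose test enumerated 10080 distinct pairings, was two-sided and was tested on simulated data first, using SciPy 1.17.1, pandas 2.3.3 and NumPy 2.4.6 in Python 3.11.15. All 9 genes are named, with the 5 most widely held genes of each related list and the most alike gene. Accessory genes outside those 5, and the tissue markers, were named after their values were seen. The genes, lists and tests were chosen with earlier results of these data known. Runs were inferred from library numbers in the labels. Each run holds fewer than 6 Hia5 libraries, so no correlation was computed within a run. Replicate numbers of Hia5 2 and 6 U are not known to mark shared cultures. Alternatives covered span extension, overlap, control peaks, list length, merging distance, each replicate left out and the dose measure.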

Additional observations from a re-analysis of the deposited data

Results flagged for a closer look

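The number of peaks at 6 U minus that at 2 U had opposite signs with different enzymes. Over the 9 genes it was -23 and -15 in the 2 Hia5 replicates, +5 with EcoGII and -11 with Btr192IV. In osa alone it was -9 and -4 with Hia5, +11 with EcoGII and -1 with Btr192IV. The difference between enzymes was not tested, since EcoGII and Btr192IV had 1 library at each dose. List length moved with these counts, at 13395 and 7969 peaks for EcoGII 6 U and 2 U, and 1425 and 3098 peaks for Btr192IV 6 U and 2 U. Relative depth was 25.47 in EcoGII 6 U and 11.35 in EcoGII 2 U. As a share of the list, the peaks in the 9 genes made up 0.3135% in EcoGII 6 U and 0.4643% in EcoGII 2 U, so EcoGII was lower at 6 U on that measure. Btr192IV was lower too, with 0.1404% at 6 U and 0.4196% at 2 U. Hia5 had 0.3852% at 6 U and 0.5986% at 2 U in replicate 1, and 0.5629% at 6 U and 0.4382% at 2 U in replicate 2.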

How the results depend on the processing

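Cutting every list to its 772 highest peaks left 3 of the 9 genes with a treated peak (osa in 17, kis in 15 and Mi-2 in 7 libraries), 145 treated peaks against 333, 11 recurrent sites against 22, and a difference between Hia5 6 U and 2 U of -4 against -19. Leaving out 1 Hia5 replicate in turn gave 8 to 9 genes, 299 to 322 peaks and 19 to 22 recurrent sites. The differences were -22.5 to -15.5, and 0 genes passed the dose test. Of these runs, dom was tested only in that without Hia5 6 U replicate 1 (adjusted exact permutation p 0.2208). In the others it had a peak in fewer than 4 Hia5 libraries and was not tested. Chd1 had no peak without Hia5 2 U replicate 2, and E(bx) had it in 1 library without Hia5 2 U replicate 1. Without EcoGII 6 U, an alternative chosen after seeing the data, brm had no peak and 8 genes, 291 peaks and 19 recurrent sites were left. Without Hia5 20, 60 and 200 U, also chosen after seeing the data, 9 genes, 313 peaks and 22 sites were left. With the span extended by 5 kb, brm had peaks in 5 libraries. With treated peaks over control peaks left out, 9 genes, 314 peaks and 20 recurrent sites were left. In that setting dom had peaks in 11 treated libraries, and the count of sites was not planned beforehand. With covered bases not divided by the library total, 2 of the 9 genes passed the dose test, kis (adjusted p 0.003748) and dom (0.02155), as did 1095 of all 1889 genes. With the number of peaks, the same 2 passed (0.02122 and 0.04734), as did 708 of all. Both measures follow list length. Replicate number follows the inferred run. Paired by replicate number, the replicate block gives a difference of -23 within number 1, -15 within number 2 and a mean of -19, with no test. The absence of a peak in a library of low depth is not a measured absence of accessible DNA.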
